A study of Mus musculus with 8 samples.

Results

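Mouse colon organoids held a small set of epithelial cells that carried the transcripts of the colonic mucin Muc2 and of Spink4, a small secreted protein of goblet cell granules. A cell was counted as goblet-like when it held at least 1 UMI (unique molecular identifier, a counted RNA molecule) of the epithelial surface gene Epcam and when Muc2 and Spink4 together made up at least 0.15% of its UMIs. Cells entered with at least 500 genes, at least 2000 UMIs and at most 10% of UMIs from mitochondrial genes. The gate took 52 of 4754 Epcam-positive cells of organoid library 1 and 67 of 4548 of library 2, in all 119 of 9302 organoid cells. The 6 epithelial libraries together held 42929 Epcam-positive cells. These are shares of 1.09% (95% exact binomial interval 0.818 to 1.43) and 1.47% (1.14 to 1.87). The intervals cover counting error alone.

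Goblet cells are secretory cells of the intestinal lining that fill their granules with the heavily glycosylated gel mucin MUC2 and release it as the mucus layer. They arise from crypt progenitors that escape Notch signalling and switch on Atoh1, and Spdef acts further down the same path. At the base of the colonic crypt a related cell, the deep crypt secretory cell, is marked by Reg4 and Kit and lies beside the Lgr5 stem cells, a place that Lyz1-positive Paneth cells take in the small intestine.

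The series compared the epithelium of 3 sources from C57BL/6 mice by droplet single-cell RNA sequencing of sorted cells, with 2 libraries a source. Organoids were grown from epithelium alone in a medium with EGF, the TGF-beta receptor inhibitor A83-01, surrogate Wnt, the GSK3 inhibitor CHIR-99021, R-spondin 1 conditioned medium, noggin, N-acetylcysteine, B27 and N2. Assembloids joined organoids with colonic stromal cells and received no surrogate Wnt, CHIR-99021, R-spondin 1 or noggin, so stroma and medium changed together and cannot be told apart. Assembloids were also grown on an orbital shaker and dissociated with Liberase TL and DNase I before TrypLE. Organoids were dissociated with TrypLE alone, and tissue crypts were released with EDTA and DTT before TrypLE. Shaking and dissociation cannot be told apart from source either. Tissue libraries held epithelium of colon crypts. Mice were male and aged 6 to 12 weeks, and the libraries of a source were biological replicates. Nothing ties each epithelial library to its own animal, so that p-values measure a spread between libraries or between sums of their cells that may be technical. Assembloid stroma, also sequenced, entered no comparison.

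Every goblet-like cell held Spink4, and Muc2 was detected in 41 of 52 cells of library 1 and 57 of 67 of library 2. The cells were selected on the UMIs of these 2 genes, and their levels are given as a description. Muc2 (ENSMUSG00000025515, GRCm38 chr7:141690340-141754693) stood at 603 and 1792 CPM (UMIs of a gene per 1000000 UMIs summed over the cells) in the libraries. The same gate in assembloids gave 1371 and 3632 CPM, and in tissue 15370 and 13064 CPM. Spink4 (chr4:40920052-40931395) stood at 6161 and 6007 CPM in the organoid cells, against 7078 and 12890 CPM in assembloids and 14732 and 11958 CPM in tissue. Spink4 was above Muc2 in both libraries of organoids and of assembloids, and close to it in tissue, among cells taken on the sum of the 2. CPM of 3' tags are not divided by gene length, since 1 tag is counted per molecule.

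The summed share of Muc2 and Spink4 had a median of 0.497% and 0.509% of a goblet-like cell's UMIs, with quartiles of 0.321% to 0.894% and 0.323% to 0.958%, and reached 3.10% and 3.37%. The last cells inside the gate held 0.161% (19 of 11769 UMIs) and 0.1504% (36 of 23943), and the first outside held 0.149% (35 of 23421) and 0.142% (53 of 37336). Between 0.15% and 0.3% lay 10 and 16 cells, so that a gate at 0.3% left 42 and 51 cells. No UMI of either gene was found in 3873 and 2815 organoid cells, called negative cells below. Neither gene alone would have found all of these cells: a gate on Muc2 alone at the same share took 7 and 31 cells and one on Spink4 alone 50 and 53. Among the cells of the Spink4 gate, Muc2 was present in 39 and 43, at 567 and 1833 CPM, against 0.762 and 4.91 CPM in cells with no Spink4 UMI.

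**Figure D1:**
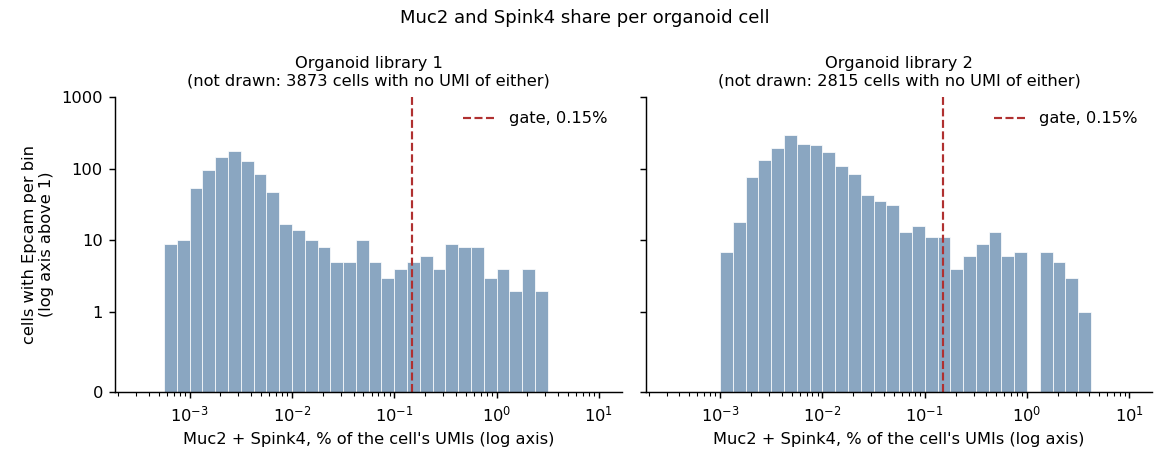
Histograms of the share of UMIs from Muc2 and Spink4 in Epcam-positive organoid cells, 1 panel per library, with both axes on log scales and a line at the gate of 0.15%. The 3873 and 2815 cells with no UMI of either gene are not drawn, and the 52 and 67 goblet-like cells form the right-hand tail, which runs on to 3.10% and 3.37%.

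The goblet-like cells were not the libraries' most deeply read cells. Their median was 25028 and 16782 UMIs, with maxima of 66770 and 60907, against medians of 35001 and 15259 and maxima of 151355 and 86629 in negative cells. Mitochondrial UMIs made up a median of 2.37% and 5.40% of the goblet-like cells and 2.15% and 5.54% of the negative cells, so that the libraries differed from each other more than the classes did. No doublet caller was run. Of the 119 cells, 4, all in library 2, shared a barcode with another library. Among all Epcam-positive cells, 146 of 4754 in library 1 and 145 of 4548 in library 2 did. Assembloid library 1 was shallow, with a median of 3756.5 UMIs in its gate cells against 17806.5 in library 2, and tissue gate cells held medians of 10829 and 5629.

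The name was set beside a list of 21 goblet cell genes that left out Muc2 and Spink4. It held secreted products and granule genes, and also channel genes and a calcium pump gene. With every cell thinned at random to 2000 UMIs, the goblet-like cells held a median of 4 of these genes in either library and the negative cells a median of 0. At least 3 of the genes were found in 48 of 52 cells (92.3%) and 61 of 67 (91.0%), against 38 of 3873 negative cells (0.981%) and 34 of 2815 (1.21%). The cells therefore carry listed goblet genes beyond the pair that chose them, as an incomplete set. The list was chosen with earlier results of these data known, so it is not an independent check of the name. Zg16, a lectin-like granule protein that is among the most abundant goblet products of the colon, gave 4 UMIs in each library, in 3 and 4 cells, and Clca1, a protease of the mucus, was found in 11 and 9 cells.

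Which genes go with Muc2 and Spink4 was asked by summing the UMIs of goblet-like and of negative cells within each library and fitting edgeR's quasi-likelihood model over the organoid and assembloid sums, with the library as a block. Genes that accompany the pair from cell to cell must differ between classes cut on the pair, so the calls say which genes those are. At an adjusted p below 0.05, 704 genes were higher and 425 lower in goblet-like cells, 4.63% and 2.79% of the 15210 tested. The balance depends on the fit: in organoids alone 1592 were higher and 1864 lower, and with at most 5% mitochondrial UMIs 448 were higher and 1635 lower. Of the 21 goblet genes 17 were higher and 0 lower, with a median log2 difference of 5.93 (all genes: −0.07). Tff3 (chr17:31125306-31129646), the trefoil peptide packed with MUC2, stood at 5549 and 5348 CPM in goblet-like cells and at 68.6 and 84.7 CPM in negative cells. The classes did not overlap, at a log2 difference of 6.10 ± 0.29 (SE, adjusted p = 0.000236). With 2 sums a class, non-overlap has a probability of 0.33 without any difference. Its share over all genes was not counted, here or below. Each SE is the log2 difference divided by the square root of the test's F statistic, not an error estimated on its own. SE and p against negative cells take their spread from the 8 sums of both cultures, not from the organoid libraries alone.

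Agr2, the disulfide isomerase needed for mucin assembly, was at 6832 and 3677 CPM against 82.7 and 64.8 CPM (log2 difference 6.04 ± 0.38, adjusted p = 0.000759). Fcgbp, a large protein that is linked into the mucus, was at 287 and 227 CPM against 2.98 and 5.18 CPM (5.99 ± 0.40, adjusted p = 0.000941). Clca1 was lower in level but no less restricted, at 29.8 and 10.4 CPM against 0.149 and 0.218 CPM (6.91 ± 0.77, adjusted p = 0.00537). In each of these genes both goblet-like sums lay far above both negative sums. Guca2a, which encodes the hormone guanylin, was likewise higher, at 432 and 396 CPM against 5.90 and 9.16 CPM (5.77 ± 0.29). The serine protease genes Klk1, at 126 and 108 CPM against 1.99 and 1.73, and Tpsg1, at 56.3 and 56.2 against 0.0743 and 0.238, behaved the same way. Chemokine genes were among them too, with Ccl6 at 38.2 and 31.3 CPM against 0.317 and 0.238 and Ccl9 at 37.6 and 36.1 against 0.358 in both. Retnlb, the resistin-like antibacterial protein of goblet cells, was higher by 5.93 ± 0.41, but 15 of its 25 UMIs in library 1 and 42 of 79 in library 2 came from 1 cell each. The 4 listed genes that were not called were Zg16 (2.43 ± 1.28, adjusted p = 0.329), Best2 (0.76), Sytl4 (2.22, adjusted p = 0.0606) and Rep15 (3.70, adjusted p = 0.089).

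**Figure D2:**
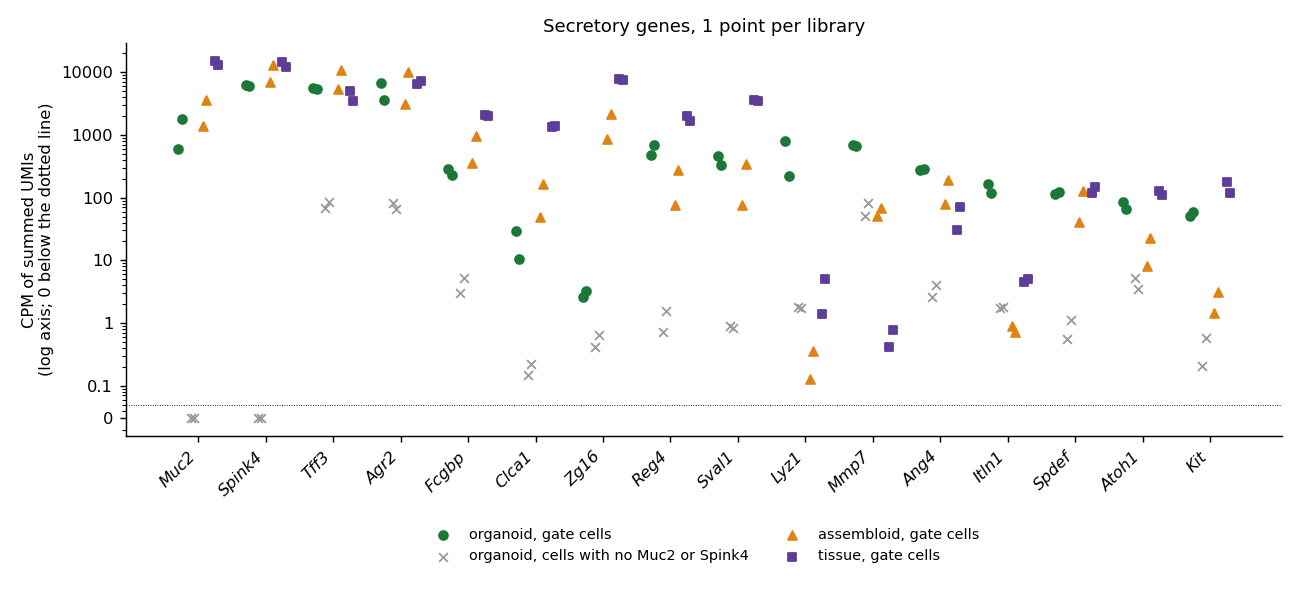
Levels of 16 genes in CPM on a log axis, 1 point per library: goblet-like cells of organoids (green circles), negative cells of organoids (grey crosses) and the gate cells of assembloids (orange triangles) and tissue (purple squares), with values of 0 drawn below the dotted line. Reg4, Sval1 and Lyz1 lie far above the negative cells, Zg16 and Clca1 far below tissue, and Lyz1, Mmp7 and Itln1 above both other sources.

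A second list held genes of deep crypt secretory and Paneth cells. Reg4 (chr3:98222156-98236748), the secreted lectin that marks deep crypt secretory cells, was at 471 and 691 CPM in goblet-like cells and at 0.729 and 1.55 CPM in negative cells, a log2 difference of 9.02 ± 0.27 (adjusted p = 5.48e-05). Kit, the receptor that marks the same cells, was at 51.1 and 59.4 CPM against 0.209 and 0.576 (7.24 ± 0.55, adjusted p = 0.00155). Both genes were higher in the goblet-like cells of both libraries. Genes in no list were also among the most raised, such as Sval1 (chr6:41951630-41956098), at 459 and 326 CPM against 0.898 and 0.834 (8.78 ± 0.42), Slc12a8, at 210 and 353 against 0.493 and 1.91 (8.05 ± 0.37), and Ramp1, at 148 and 107 against 0.398 and 0.715 (7.92 ± 0.39).

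Lysozyme 1 (Lyz1, chr10:117287797-117292868), the bacteriolytic enzyme of Paneth cells, was at 796 and 219 CPM in goblet-like cells and at 1.83 and 1.75 CPM in negative cells, a log2 difference of 7.96 ± 0.46 (adjusted p = 0.000498). It was found in 30 of 52 and 23 of 67 cells, and the highest single cell held 28.7% and 22.7% of its UMIs. Its near-identical neighbour Lyz2 had 0 UMIs in goblet-like cells, though reads of such a pair can be split by the counting. Matrilysin (Mmp7, chr9:7692090-7699585), the protease that activates defensins, was at 699 and 658 CPM against 50.7 and 81.9 (3.34 ± 0.34, adjusted p = 0.00407) and was found in 47 and 58 cells. Both genes were higher in each library, Mmp7 from a much higher level in the negative cells. From the goblet list, Ang4, a microbicidal ribonuclease, was at 281 and 289 CPM against 2.59 and 4.01 (6.42 ± 0.28), and Itln1, the lectin intelectin 1 that binds microbial sugars, at 163 and 117 against 1.75 and 1.81 (6.24 ± 0.23, adjusted p = 8.99e-05). Of the Itln1 UMIs 25% and 21.9% came from 1 cell a library, and 56.7% and 43.8% from 3 cells. Of 9 listed deep crypt and Paneth genes in the files 7 had enough counts to be tested, and these 7 were higher (median 7.96). The filter asked for enough counts in any 1 class of a culture. Genes near 0 in negative cells, in this list and the others, could therefore enter through the gate cells where they are high. The count of 7 is thus a description. The 7 include 2 that rest on single cells. Of the Mptx1 UMIs 200 of 233 in library 2 and 11 of 12 in library 1 came from 1 cell, and of those of the defensin gene Defa24 242 of 249 in library 1.

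Thinned to 2000 UMIs, these transcripts were spread unevenly over the goblet-like cells. Reg4 was detected in 42.3% and 37.3% of them, against 0.181% and 0.462% of negative cells, and Lyz1 in 30.8% and 19.4% against 0.232% and 0.568%. Ang4 was detected in 30.8% and 29.9% against 0.413% and 0.604%, Itln1 in 19.2% and 13.4% against 0.465% and 0.746%, and Kit in 13.5% and 17.9% against 0.129% and 0.178%. Mptx1 was detected in 1 of 52 and 3 of 67 goblet-like cells. Whether the low shares in negative cells are free RNA or expression was not tested. Over the cells of a library, Spink4 went with Tff3 (Spearman's rank correlation 0.49 over 52 cells and 0.56 over 67), with Agr2 (0.42 and 0.59) and with Reg4 (0.37 and 0.53). The rank correlation was 0.29 and 0.37 for Spink4 with Lyz1, 0.29 and 0.35 for Tff3 with Agr2, and 0.22 and 0.56 for Reg4 with Lyz1. For Muc2 it was 0.27 and 0.0032 with Reg4 and 0.092 and 0.12 with Fcgbp. Between Muc2 and Spink4, whose sum chose the cells, it was 0.24 and 0.04. These are descriptions over cells that share a library, a gate and sparse counts.

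**Figure D3:**
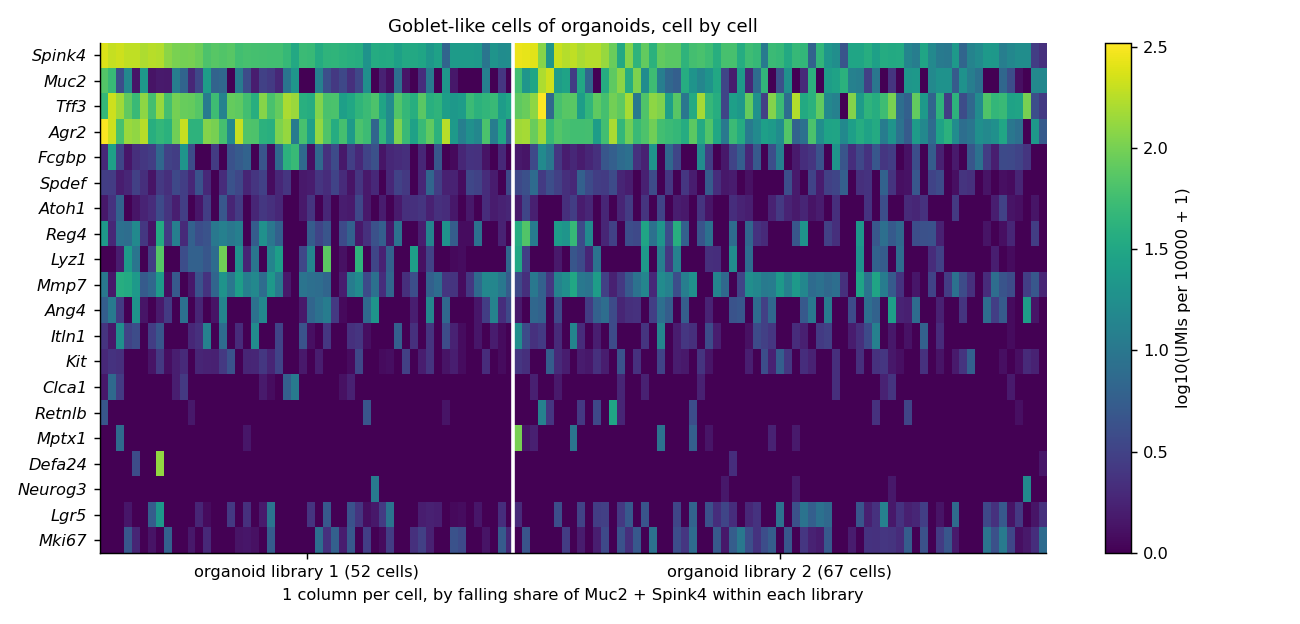
Heat map of 20 genes (rows) in the 119 goblet-like cells (columns), ordered within each library by falling share of Muc2 and Spink4, with colour giving log10 of UMIs per 10000 plus 1. Tff3 and Agr2 fill most columns, while Lyz1, found in 30 and 23 cells, and Clca1, found in 11 and 9, are scattered through them.

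The promoters of 4 of the genes that set these cells apart are printed because they can be read for the DNA words of the factors that were higher with them: a mucin, a pair of secreted products and a lineage factor. Each line gives 250 bases before the start of the RefSeq gene in GRCm38.p6, read along the gene's own strand, with motif matches in capitals. Each word was searched on both strands. E-boxes, bound by basic helix-loop-helix factors such as Atoh1, were searched as CAGCTG, which reads alike on both strands, and as CAGATG, which reads on the other strand as CATCTG. The forkhead word was TGTTTAC, which on the other strand reads GTAAACA. The word of the Creb3 and Xbp1 type was TGACGTG, with CACGTCA as its other strand.
Muc2 (chr7:141690090-141690339, plus strand): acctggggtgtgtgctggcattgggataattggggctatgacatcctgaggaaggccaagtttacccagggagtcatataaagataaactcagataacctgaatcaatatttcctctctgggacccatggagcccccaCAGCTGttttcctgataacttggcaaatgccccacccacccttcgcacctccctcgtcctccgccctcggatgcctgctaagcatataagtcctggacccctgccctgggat
Reg4 (chr3:98221906-98222155, plus strand): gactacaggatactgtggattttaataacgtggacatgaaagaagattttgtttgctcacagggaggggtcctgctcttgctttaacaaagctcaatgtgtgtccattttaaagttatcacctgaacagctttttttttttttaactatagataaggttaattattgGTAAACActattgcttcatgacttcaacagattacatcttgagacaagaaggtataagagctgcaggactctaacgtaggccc
Sval1 (chr6:41951378-41951627, plus strand): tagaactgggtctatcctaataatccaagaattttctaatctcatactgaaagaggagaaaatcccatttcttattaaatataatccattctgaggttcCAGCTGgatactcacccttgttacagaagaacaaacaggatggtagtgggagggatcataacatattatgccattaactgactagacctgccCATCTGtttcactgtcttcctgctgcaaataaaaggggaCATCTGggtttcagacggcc
Spdef (chr17:27728952-27729201, minus strand): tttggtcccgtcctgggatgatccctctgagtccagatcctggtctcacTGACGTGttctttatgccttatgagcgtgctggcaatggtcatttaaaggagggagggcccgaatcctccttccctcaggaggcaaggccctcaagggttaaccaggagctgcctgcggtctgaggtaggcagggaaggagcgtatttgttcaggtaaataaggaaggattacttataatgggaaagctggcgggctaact

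The Muc2 line holds CAGCTG 112 bases before the start, and Sval1 holds it 151 bases before, with CATCTG at 59 and 20 bases. The Reg4 line holds the forkhead word on the reverse strand at 83 bases, and Spdef holds TGACGTG at 201 bases. All 32851 RefSeq promoters of 300 bases (250 before to 50 after the start) were searched in the 250 bases before the start alone. Of these promoters 13.0% hold CAGCTG there, 14.4% CAGATG, 3.17% TGTTTAC and 1.65% TGACGTG. Of the 31 goblet, deep crypt and lineage factor genes that were higher, 23 had 29 promoters in the table, of which 4 (13.8%), 6 (20.7%), 3 (10.3%) and 1 (3.45%) held the words. A match is a description of the letters and not a binding site. Spink4 and Tff3 had no entry.

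Transcription factors of the secretory lineage were measured at lower but clear levels. Spdef (chr17:27714352-27728955), which drives goblet maturation, was at 115 and 121 CPM in goblet-like cells and at 0.561 and 1.13 CPM in negative cells (7.18 ± 0.35, adjusted p = 0.000236). It was found in 47 of 52 and 48 of 67 cells. Atoh1 (chr6:64729125-64731245), the switch into the secretory lineage, was at 86.7 and 65.0 CPM against 5.20 and 3.44 (4.09 ± 0.22, adjusted p = 0.000379) and was found in 40 and 38 cells. Both were higher in the goblet-like cells of each library. Creb3l1, a membrane-bound factor of secretory cells that is counted with the folding genes, was at 298 and 347 CPM against 4.07 and 4.79 (6.13 ± 0.34), and Gfi1, which represses the endocrine choice, at 22.01 and 12.8 against 0.0608 and 0.139 (7.47 ± 0.91). Of 18 listed secretory factors tested 7 were higher and 0 lower: beside Spdef, Atoh1 and Gfi1 these were Foxa1 (1.04), Foxa2 (1.64, adjusted p = 0.0479), Bhlha15 (2.76) and Neurog3 (2.96), the endocrine switch, of which 21 of 21 and 30 of 33 UMIs came from 1 cell a library. Foxa3 (1.19, adjusted p = 0.11), Sox4 (0.13), Sox9 (0.06), Hes6 (0.26) and Klf4 (0.48) were not called.

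Of 21 Notch genes tested 4 were higher and 2 lower, and 15 were not called. Dll1, the ligand that committed secretory cells present to their neighbours, was at 15.5 and 5.62 CPM against 0.304 and 0.338 (4.89 ± 0.86, adjusted p = 0.0231) and was found in 16 and 6 cells. Dll4, the other ligand of the crypt, was at 16.2 and 20.1 CPM against 2.11 and 2.94 (2.80 ± 0.41). Hes1, the target through which Notch represses Atoh1, was lower, at 63.4 and 77.0 CPM against 93.4 and 133 (−0.73 ± 0.14, adjusted p = 0.0293), and so was the receptor Notch2, at 3.24 and 7.22 CPM against 10.9 and 27.1 (−1.90 ± 0.34). Notch1 was at 9.71 and 7.22 CPM against 15.1 and 21.8 (−1.13, adjusted p = 0.095). The other genes that were higher were the receptor Notch4 and the co-activator Maml3, and the list's median was −0.03.

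Of 33 mucin glycosylation genes tested 20 were higher, 0 lower and 13 not called (median 1.23). Galnt5, which starts O-glycan chains, was at 30.4 and 43.3 CPM against 0.979 and 1.19 (5.01 ± 0.40), and Fut4, a fucosyltransferase, at 22.7 and 24.9 against 0.432 and 0.894 (5.20 ± 0.48). Galnt7, another enzyme of the first family, was at 324 and 478 CPM against 58.4 and 106 (2.27 ± 0.22), and Gcnt3, which branches the chains, at 40.8 and 61.8 against 4.01 and 9.87 (2.92 ± 0.23). These 4 were higher in both libraries, as was the sulfotransferase gene Chst4, at 41.4 and 41.7 CPM against 5.17 and 6.32. B3gnt6, which makes the core 3 chains of colonic mucin, stood at 1.30 and 4.01 CPM and was not called (2.87, adjusted p = 0.203).

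Of 41 genes of endoplasmic reticulum folding and export 29 were higher and 0 lower (median 0.91). After Creb3l1 (6.13, above), the larger differences included those of genes known from secretory epithelium: Ern2, the stress sensor of mucous cells, was at 64.7 and 85.8 CPM against 5.23 and 6.45 (3.62 ± 0.35), Creb3l4 at 47.9 and 40.9 against 2.56 and 3.06 (3.93 ± 0.33) and the isomerase gene Pdia5 at 188 and 163 against 28.0 and 31.8 (2.50 ± 0.28). Xbp1, the factor that expands the secretory apparatus, was at 194 and 190 CPM against 84.7 and 87.8 (1.10 ± 0.13) and the chaperone gene Hspa5 at 853 and 773 against 452 and 493 (0.73 ± 0.12). Sec61b, of the import channel, was not called (0.62, adjusted p = 0.0539). Among the other mucin and trefoil genes, of which 7 were tested, Muc13 (559 and 648 CPM against 187 and 275) and Muc4 (71.9 and 89.1 against 18.2 and 34.3), both membrane mucins, were higher, and the membrane mucin Muc1 was lower (34.3 and 32.9 against 51.6 and 57.4, −0.75 ± 0.16). When scaled by total UMIs alone, 3 of the 7 were higher and 0 lower, so Muc1 was no longer called. The trefoil gene Tff2 was higher (5.25), with 16 of 36 UMIs of library 1 in 1 cell.

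**Figure D4:**
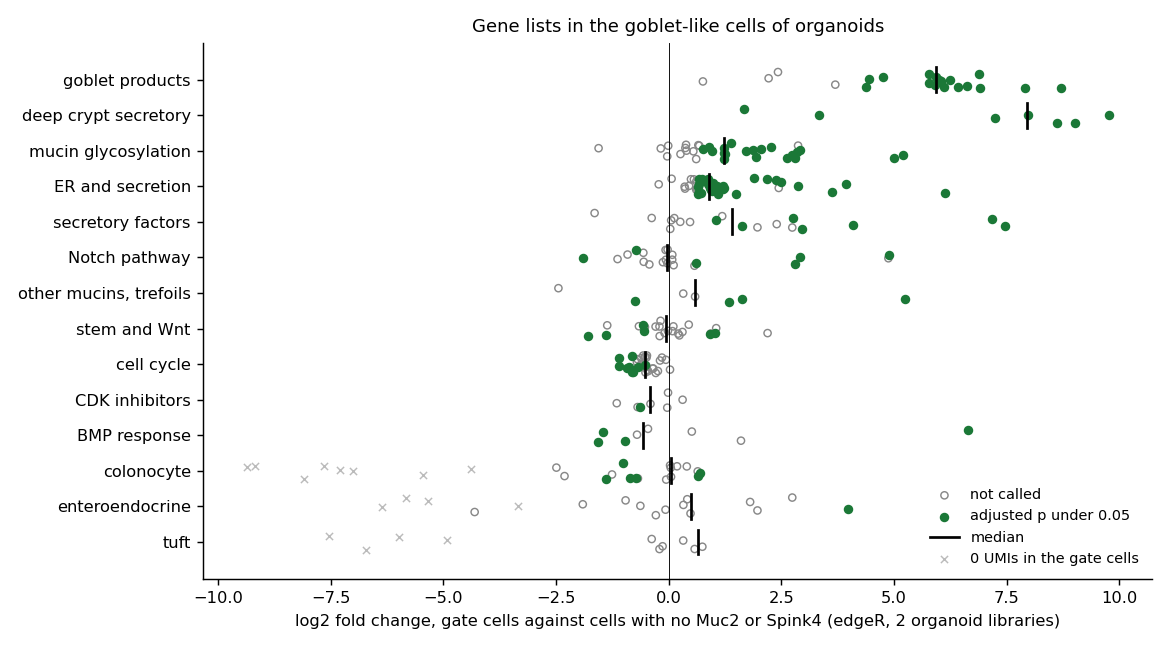
Log2 difference of goblet-like minus negative organoid cells for tested genes, 1 row of points per list, without the immune and stromal lists. Filled points passed an adjusted p of 0.05, open points did not and crosses had 0 UMIs in goblet-like cells. Black bars are medians with genes at 0 UMIs in 1 class set to a bound from 3 counts. Genes with 3 or fewer UMIs in both classes are left out of them. The bars of colonocyte, enteroendocrine and tuft genes are at 0.05, 0.49 and 0.66, against plain medians of −1.01, −0.28 and −0.29. Goblet and deep crypt genes sit near medians of 5.93 and 7.96, glycosylation genes near 1.23, and cycling genes below 0 at −0.53.

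Among the genes that were lower in goblet-like cells, Krt4, a type II keratin, had the lowest log2 difference of the called genes named by size, at 9.06 and 22.5 CPM against 51.3 and 76.2 (−2.13 ± 0.26, adjusted p = 0.00728). The water channel Aqp4 was at 41.4 and 61.8 CPM against 203 and 180 (−1.97 ± 0.19), Ier3, an early response gene, at 51.8 and 57.0 against 191 and 179 (−1.83 ± 0.12), and Lgals3, a galectin of absorptive cells, at 64.7 and 115 against 253 and 279 (−1.67 ± 0.21). The rule that named these genes asked for no overlap between the classes. Ascl2, the stem cell factor driven by Wnt, was at 19.4 and 13.6 CPM against 60.7 and 48.3 (−1.78 ± 0.19). Id1, a direct BMP target, was at 81.6 and 67.4 CPM against 254 and 174 (−1.57 ± 0.13), and Id2 (−1.45) and Id3 (−0.98) were lower too. Of 8 BMP response genes tested these 3 were lower, 4 were not called and 1 was higher, Id4 (6.64), at 8.42 and 1.60 CPM in goblet-like cells. The Id4 level in library 2 lies under the 2.41 CPM that 3 UMIs make there. Scaling by total UMIs alone gave 2 lower and 1 higher.

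The Wnt and stem cell list did not move as a block, with 2 genes higher and 4 lower of 24 (median −0.05). Lgr5, the stem cell receptor, was at 133 and 205 CPM in goblet-like cells and at 125 and 299 CPM in negative cells (−0.29, adjusted p = 0.383), and Axin2, a general Wnt target, at 69.3 and 85.8 against 74.9 and 97.1 (−0.20, adjusted p = 0.471). Of the Lgr5 UMIs of goblet-like cells in library 1, 55.3% came from 3 cells, and in library 2 35.2%. The classes overlapped in level over the libraries for both genes. Smoc2, a secreted protein of stem cells, was higher (99.7 and 97.9 CPM against 40.4 and 54.3, 1.02 ± 0.18), as was Rgmb (0.92), and Ascl2, Rnf43, Cdca7 and Kcnq1 were lower.

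Genes of other lineages were read from lists and single markers. Krt20, a keratin of mature surface cells, and Dclk1, of tuft cells, had 0 UMIs in both libraries, and Chga, of endocrine cells, stood at 1.30 and 0 CPM. Thinned to 2000 UMIs, each was found in 0 of 52 and 0 of 67 cells, which by 3 counts allows shares of cells with a UMI at that depth of up to 5.77% and 4.48% and sets no limit on cells expressing the gene. Without thinning, 1 cell of library 1 held Chga (1.92%). All 3 genes were found in under 1% of negative cells as well. Of 17 endocrine genes tested 1 was higher, Pcsk1, the hormone convertase, at 6.47 and 16.1 CPM against 0.446 and 0.854 (3.99). The endocrine list summed to 23.95 and 53.8 CPM, against 7.77 and 58.1 CPM in negative cells, and the tuft list to 14.9 and 18.5 CPM, against 14.7 and 15.6 CPM. Both sums were low in either class beside the goblet list, at 14427 and 11214 CPM in goblet-like cells. The absorptive colonocyte list summed to 2152 and 1731 CPM in goblet-like cells and to 3164 and 2314 CPM in negative cells, with UMIs of 17 and 16 of its 26 genes in goblet-like cells and much of the sum from Car2. Of 25 absorptive colonocyte genes 2 were higher (Slc26a2 0.65, Cdhr5 0.69) and 4 lower, among them carbonic anhydrase Car2, at 860 and 576 CPM against 1533 and 964 (−0.85). With scaling by total UMIs alone 2 were higher and 1 lower. Of 10 immune genes tested 1 was called, Itgam (4.48), at 3.24 and 4.81 CPM of the 5.18 and 5.62 CPM to which the immune list summed, and of 11 stromal genes 0 were called by edgeR.

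Cell cycle transcripts were present in the goblet-like cells but at lower levels in part. Of 32 cycling genes 0 were higher and 9 lower (median −0.53), among them the mitotic genes Ccnb1, at 31.1 and 44.1 CPM against 80.7 and 72.1 (−1.10 ± 0.19, adjusted p = 0.0226), and Cdc20 (−0.91), and Rrm2, for nucleotide synthesis, at 57.6 and 61.8 against 119 and 91.8 (−0.87 ± 0.16). Ccnd1, the G1 cyclin, was at 131 and 148 CPM against 342 and 316 (−1.30 ± 0.12). Mki67, the proliferation marker, was at 140 and 213 CPM against 226 and 250 (−0.51, adjusted p = 0.0779) and Top2a at 243 and 351 against 386 and 408 (−0.50, adjusted p = 0.0975). Mki67 and Top2a did not pass the threshold. No CDK inhibitor of 7 was higher, and Cdkn1a was lower (−0.64).

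Thinned to 2000 UMIs, Mki67 was detected in 7 of 52 goblet-like cells (13.5%, exact interval 5.59 to 25.8) and 18 of 67 (26.9%, 16.8 to 39.1), against 32.3% and 34.6% of negative cells. Without thinning the shares were 50% and 65.7%, against 89.8% and 80.2%. Top2a gave 28.8% and 34.3% against 39.8% and 45.3%, and Pcna 25% and 23.9% against 28.2% and 29.0%. Lgr5 was detected in 11.5% and 22.4% of goblet-like cells and in 18.8% and 39.2% of negative cells. The shares of goblet-like cells were below those of negative cells in each library for all 4 genes. With 2 libraries as pairs, a two-sided exact permutation test of such shares cannot fall below 0.5, so none was made. In the gate cells of tissue Mki67 was detected in 11.4% and 11.5%, and in those of assembloids in 14.7% and 5.31%.

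**Figure D5:**
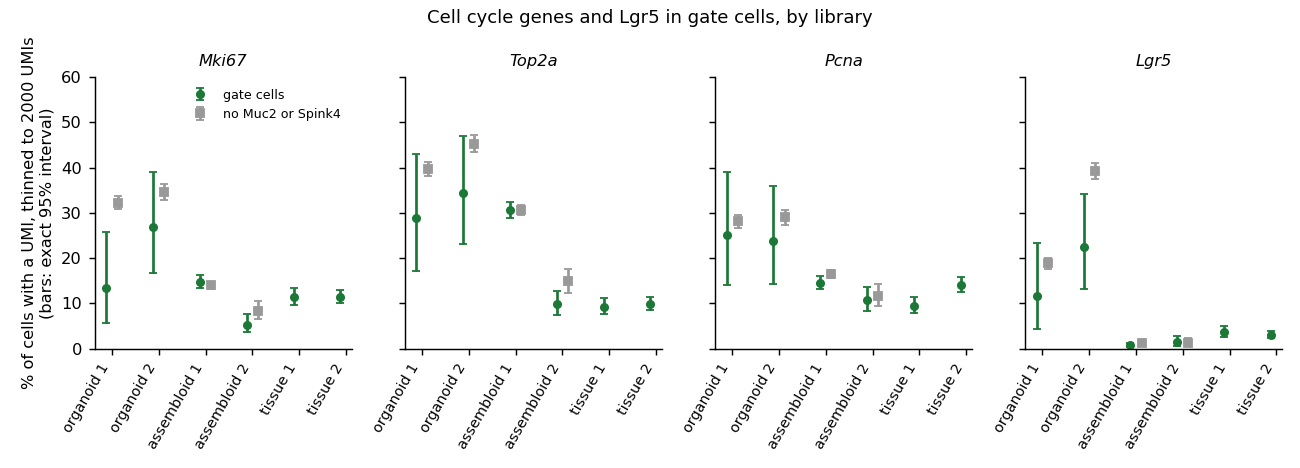
Percent of cells with at least 1 UMI of Mki67, Top2a, Pcna and Lgr5 after thinning to 2000 UMIs, 1 panel per gene, for gate cells and negative cells of each library, with exact 95% intervals as bars. Tissue has no negative cells. Goblet-like organoid cells lie under the negative cells of their own library in every panel, for example at 13.5% and 26.9% against 32.3% and 34.6% for Mki67.

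Leaving out an organoid library leaves 1 sum a class there, with the spread taken from the assembloid sums and the lone library assumed to vary like them. Without organoid library 1 edgeR called 0 genes, with 2669 at an unadjusted p below 0.05, and without library 2 it called 18. Of the 17 goblet genes 0 and 7 were then called, of the 7 deep crypt genes 0 and 3, of the 7 factors 0 and 1, and of the Notch, glycosylation, folding and cycling genes 0 in either case. The 21 goblet genes had positive differences in both cases, with medians of 5.25 and 5.79, and the 7 deep crypt genes medians of 6.34 and 7.51. Without assembloid library 1 or 2 the count was 3365 and 3363, and in organoids alone 3456. With no library block 10 glycosylation, 7 folding and 0 cycling genes were called, and with at most 5% mitochondrial UMIs 25 cycling genes were lower, where the median of all genes was −0.36. With negative cells held between the quartiles of the goblet-like cells' UMIs, 2 cycling genes were lower.

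Set against the gate cells of tissue, 1105 and 1779 cells or 45.4% and 64.7% of its Epcam-positive cells, the goblet-like cells of organoids held far less RNA of Zg16, Clca1, Fcgbp and Best2, while no difference was called for Spdef, Atoh1, Tff3 or Agr2. A fit of the 6 gate sums by source, with no block, called 1453 genes higher in organoids and 1656 lower, 9.76% and 11.1% of 14893. Spdef stood at 115 and 121 CPM against 118 and 150 in tissue (−0.19) and Atoh1 at 86.7 and 65.0 against 126 and 112 (−0.63, adjusted p = 0.28). A missing call does not show that levels are equal. Of 20 secretory factors tested Sox4 and Neurog3 were higher in organoids and Klf4 lower. Of the organoid Neurog3 UMIs, 21 of 21 and 30 of 33 came from 1 cell a library. Tff3, at 4995 and 3458 CPM in tissue, was not called (0.37), nor was Agr2 (−0.36 ± 0.55).

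Of the 21 goblet genes 11 were lower in organoids than in tissue, 3 were higher (Ccl9, Itln1 and Ang4) and 7 were not called, with a median of −1.69 (all genes: −0.10). Zg16 was at 2.59 and 3.21 CPM in organoids against 7805 and 7629 in tissue (−11.38 ± 0.68, adjusted p = 8.89e-05). Clca1 was at 29.8 and 10.4 CPM against 1356 and 1379 (−6.03 ± 0.68), and Fcgbp at 287 and 227 against 2114 and 2004 (−2.99 ± 0.46, adjusted p = 0.00308). The chloride channel gene Best2, of mature colonic goblet cells, was at 0.647 and 2.41 CPM against 208 and 158 (−6.98). Organoid and tissue libraries were far apart for each of these. In tissue these RNAs were not limited to the gate cells. Zg16 was found in 99.8% and 98.9% of tissue cells under the gate, and thinned to 2000 UMIs in 45.9% and 52.8% of them, against 73.8% and 82.4% of gate cells. Its level was 305 and 384 CPM under the gate, and that of Clca1 was 36.5 and 47.6 CPM. Whether that share is free RNA or expression was not tested. Of 34 glycosylation genes 13 were lower and 1 higher, with B3gnt7, which extends the sulfated chains, at 18.8 and 28.9 CPM against 444 and 378 (−4.13), while of 41 folding genes 1 was lower and 0 higher.

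Among deep crypt and Paneth genes the sources differed in both directions, 3 higher and 3 lower of 7. Those higher were Lyz1, Mmp7 and Defa24. Of the organoid Defa24 UMIs, 242 of 249 in library 1 came from 1 cell, and library 2 held 3. Lyz1 was at 796 and 219 CPM in organoids against 1.38 and 4.95 in tissue (7.37 ± 0.84, adjusted p = 0.000863), and Mmp7 at 699 and 658 against 0.421 and 0.775 (10.12 ± 0.42, adjusted p = 2.31e-05). In negative organoid cells Mmp7 also stood far above the tissue gate cells, at the levels given above. Itln1, counted with the goblet list, was at 163 and 117 CPM against 4.57 and 5.01 (4.88 ± 0.30). Reg4, in contrast, was at 471 and 691 against 1981 and 1655 CPM (−1.67 ± 0.48, adjusted p = 0.0396), Kit at 51.1 and 59.4 against 176 and 118 (−1.42 ± 0.30) and Mptx1, a pentraxin, at 7.77 and 187 against 23517 and 25568. Mptx1 was found in 100% of tissue cells under the gate in both libraries, at 513 and 806 CPM, and thinned in 65.1% and 79.7% of them, against 96.9% and 98.8% of gate cells. Thinned, Lyz1 was detected in 0.0905% and 0.281% of tissue gate cells, against 30.8% and 19.4% in organoids. Cdh13, an adhesion gene, was also among the most raised, at 57.0 and 95.5 CPM against 0.180 and 0.119.

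Against tissue, 29 of 32 cycling genes were higher in the organoid cells and 0 lower (median 1.82), with the list at 3510 and 3567 CPM against 1083 and 1042. The cells outside the gate differed in the same way, at 5123 and 4422 CPM of the list in negative cells of organoids and 1188 and 923 CPM in tissue cells under the gate. Rrm2 differed by 2.89 ± 0.37 and Top2a by 1.97, while Mki67 was not called (0.94, adjusted p = 0.081). Of 23 stem and Wnt genes 14 were higher and 1 lower: Lgr5 was at 133 and 205 CPM against 16.3 and 19.1 (3.23 ± 0.24, adjusted p = 0.000167) and Axin2 differed by 1.81 ± 0.34. Lgr5 too was higher in the organoid cells outside the gate, at 125 and 299 CPM in negative cells against 29.8 and 13.5 CPM in tissue cells under the gate. Of 26 colonocyte genes 0 were higher and 21 lower, with Krt20, at 32.0 and 57.7 CPM in tissue and 0 UMIs in the organoid cells, at least 41.8-fold lower. The list summed to 4854 and 6128 CPM in tissue gate cells and to 15720 and 18600 CPM in tissue cells under the gate, with Krt20 at 137 and 226 CPM there, and the part of such RNA in the levels of the gate cells was not tested. The largest of those bounds among the named genes were for Meg3 (at least 162-fold) and Saa1 (at least 147-fold). Such folds are set against 3 counts over both organoid libraries. Without organoid library 1 the cycling count was 8 and the colonocyte count 8, without library 2 these were 17 and 15, and without tissue library 1 or 2 the cycling count was 14 and 17 and that of stem genes 7.

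In tissue the gate separates cells less sharply than in organoids, since 0 of its Epcam-positive cells lacked both genes, and 1331 and 971 cells under the gate held at least 1 UMI of them. Of the 1105 and 1779 tissue gate cells, 671 and 892 reached a share of 1%, and the tissue levels above are taken over all gate cells. A gate of 1% in tissue and assembloids, added after the data had been seen, gave 3863 and 4417 calls against tissue and assembloids, above the 3109 and 3626 at 0.15%.

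In assembloids the gate took 2474 and 546 cells, 11.4% (exact interval 10.96 to 11.8) and 8.15% (7.51 to 8.84) of Epcam-positive cells, against 1.09% and 1.47% in organoids. These shares depend on the gate. At 0.3% they were 7.05% and 6.45%, against 0.883% and 1.12% in organoids, and at 1% they were 1.81% and 4.30%, so that the order of the assembloid libraries turned. Of the 2474 cells of library 1, 940 lay under 0.3%, and in that shallow library the last cell inside the gate held 5 UMIs of the pair. Between the gate cells of both cultures 1352 genes were higher in organoids and 2274 lower, 9.08% and 15.3% of 14893. This balance rests on the TMM scaling, whose factors were 1.07 and 1.23 in organoids and 0.716 and 0.810 in assembloids and which set the log2 differences lower than CPM do, by a median of 0.59. With scaling by total UMIs alone, added after the data had been seen, 3534 genes were higher and 1232 lower, with medians over all genes of 0.45 against −0.13. Lyz1 was at 0.129 and 0.363 CPM in assembloids (10.52 ± 1.07) and Itln1 at 0.904 and 0.726 CPM (6.81 ± 0.36, adjusted p = 7.08e-05). Thinned, Lyz1 was found in 0 of 2474 and 0 of 546 assembloid cells. Mmp7 was at 50.2 and 68.8 CPM (2.94) and Kit at 1.42 and 3.08 CPM (4.07 ± 0.36). Of 7 deep crypt genes 6 were higher in organoids and 0 lower, among them Mptx1 and Defa24, whose organoid UMIs came mostly from single cells as given above. The exception, Reg4, was at 75.7 and 271 CPM in assembloids (1.18, adjusted p = 0.101), and it was called with total UMIs (1.74, adjusted p = 0.0226).

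Of 20 secretory factors tested, 7 were higher in organoids than in assembloids and 12 were not called, with Atoh1 at 8.14 and 22.95 CPM in assembloids (1.76, adjusted p = 0.0156) and Gfi1 (2.85 ± 0.47) among those higher. Neurog3, whose organoid UMIs came mostly from 1 cell a library, was also among the 7. Klf4 was lower with TMM scaling (−1.23) and was not called with total UMIs (−0.66), where 11 factors were higher and 0 lower. Spdef was at 41.1 and 126 CPM and was called under neither scaling, at −0.05 with TMM and 0.50 with total UMIs. Of 21 goblet genes 6 were lower, 2 higher and 13 not called, and with total UMIs 5 were lower and 3 higher, with Best2 no longer lower. Zg16 was at 877 and 2153 CPM in assembloids (−9.59), Clca1 was lower (−2.87 ± 0.62), as were Fcgbp, at 352 and 975 CPM (−1.90, adjusted p = 0.0151), and Retnlb, at 89.9 and 305 CPM (−2.92 ± 0.82). Tff3 was at 5457 and 11035 CPM (−1.16, adjusted p = 0.0712), and differed by −0.60 with total UMIs. For Tff3 and Spdef the assembloid libraries lay on either side of the organoid ones or reached down to them.

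Of the stem and Wnt list 16 genes were higher in the organoid cells and 1 lower, with Smoc2 (6.22 ± 0.29), Lgr5, at 3.42 and 3.81 CPM in assembloids (4.94), and Axin2 (3.25 ± 0.37), and of 32 cycling genes 15 were higher, 0 lower and 17 not called. With total UMIs 17 stem genes were higher and 0 lower, and 27 cycling genes were higher. The cells outside the gate differed in the same way, with the stem list at 1629 and 2876 CPM in negative cells of organoids against 675 and 837 CPM in those of assembloids, and the cycling list at 5123 and 4422 against 2069 and 998 CPM. The cycling count was 4 and 9 without organoid library 1 and 2, 29 without assembloid library 1 and 30 at the gate of 1%, and the count of lower goblet genes was 2 without either organoid library, 11 without assembloid library 1 and 13 at that gate. Of the colonocyte list 17 were lower (15 with total UMIs), with Krt20, at 65.0 and 31.6 CPM in assembloids, at least 47.5-fold lower, and this count was 9 and 11 without organoid library 1 and 2. Immune genes (9 lower) and stromal genes (6 lower) summed to 207 and 147 CPM and to 536 and 111 CPM in the assembloid gate cells, against 5.18 and 5.62 and 1.29 and 8.83 CPM in organoids, and their part in the other differences was not tested. Dcn and Col3a1, of stromal cells, were at least 86.2-fold and 78.5-fold lower, and Slpi, an antiprotease, at least 590-fold.

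Whether the step from other cells to gate cells differed between sources was tested as a difference of contrasts, which sets each source against its own cells. Against tissue, with all cells under the gate as the comparison, 1106 genes had a higher contrast in organoids and 390 a lower one, 6.58% and 2.32% of 16805. DESeq2 gave 1276 and 790, and without assembloid library 1 edgeR gave 955 and 3108. The count is far lower under other settings, at 88 and 33 with comparison cells of matched UMIs, 60 and 12 with no replicate block, and 28 and 21 or 254 and 31 without organoid library 1 or 2. Of the goblet list 12 had a higher contrast and 1 a lower one, and 5 of the deep crypt list had a higher one: Lyz1 (7.43 ± 1.24), Mmp7 (4.59), Reg4 (3.17 ± 0.19), Kit (1.98 ± 0.29) and Mptx1 (3.05 ± 0.71). Of the organoid Mptx1 UMIs, 11 of 12 in library 1 and 200 of 233 in library 2 came from 1 cell. With matched UMIs 3 goblet and 2 deep crypt genes had a higher contrast, with no replicate block 3 and 2, and without organoid library 1 or 2 these were 1 and 2 or 4 and 2. Tff3 (1.59) and Agr2 (2.85 ± 0.42), which did not pass between the gate cells themselves, had a higher contrast. The tissue cells under the gate all held Muc2 or Spink4, and its part in this difference was not tested. Best2 had a lower one (−4.97). The 12 goblet genes with a higher contrast included Guca2a and Ccl9. In tissue itself Guca2a was lower in gate cells than in cells under the gate, and Ccl9 was not called. The other 19 listed genes were higher there. The cycling and stem lists, higher in organoids between the gate cells themselves, did not have higher contrasts as lists. Of 32 cycling genes 0 had a higher contrast and 2 a lower one, Plk1 and Cdc20 (median −0.48), and of 24 stem and Wnt genes 1 had a higher contrast, Lgr4, and 5 a lower one, Slc12a2, Lrig1, Ephb2, Rnf43 and Kcnq1 (median −0.39, all genes −0.04).

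Against assembloids, with negative cells as the comparison, 34 genes had a higher contrast in organoids and 5 a lower one, 0.224% and 0.0329% of 15210. DESeq2 gave 384 and 370, and edgeR at 5% mitochondrial UMIs 40 and 181. The 34 held the goblet genes Ccl6 (5.99 ± 0.26, adjusted p = 0.00205), Itln1 (5.70 ± 0.44, adjusted p = 0.0131), Ccl9 (4.82 ± 0.52) and Guca2a (4.15 ± 0.35), and Reg4 (3.82 ± 0.32, adjusted p = 0.0159) and Creb3l1 (4.26 ± 0.42). These were 4 of the 21 goblet genes, with 0 lower, and 1 of 7 deep crypt genes. Between the assembloid classes themselves none of these 4 goblet genes was called, while 12 others of the list were higher in gate cells. Lyz1, Kit, Mmp7, Cd24a, Mptx1 and Defa24 were not called, nor did edgeR call any of 18 secretory factors, 24 stem and Wnt genes or 32 cycling genes, of which 2, 5 and 16 had an unadjusted p below 0.05. DESeq2 called 9 goblet and 4 deep crypt genes higher, 1 factor and 1 stem gene higher, and 1 goblet, 1 stem and 4 cycling genes lower. Itln1 rose by 6.24 on the log2 scale from negative to goblet-like cells of organoids, and its value in assembloids was 0.55. Id1 and Ccnd1 had lower contrasts (−1.89 ± 0.18 and −1.43 ± 0.17). Without either organoid library 0 genes were called by edgeR, with 2046 and 3092 at an unadjusted p below 0.05. All of these comparisons use the same 2 sums of goblet-like organoid cells.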

How the data were processed

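The values the authors deposited were raw UMI counts for each gene in each barcode, with no scaling. Cells were C57BL/6 colon epithelium, sorted per the series' design text and sequenced with 10x 3' v3 chemistry. The matrix headers name Cell Ranger 7.1.0 and the submitters' processing notes Cell Ranger 6 with the mm10 genome, so the version is uncertain, and the annotation release and the treatment of introns were not given in the sources used here. Gene positions are GENCODE's on GRCm38.

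Barcodes were filtered and gated as described above, and counts were summed per library and class. The organoid sums held 1544684 and 1246308 UMIs, at which 3 UMIs are 1.94 and 2.41 CPM. Sums were fitted with edgeR 4.0.16 (R 4.3.3): TMM scaling, filterByExpr, quasi-likelihood tests and Benjamini-Hochberg adjustment over all genes tested. Fits against other cells carried the library as a block. They were to use all 6 libraries with negative cells, but tissue had 0 negative cells, so organoids and assembloids gave 8 sums, and the contrast with tissue used all cells under the gate over 12 sums. Alternatives were DESeq2 1.42.0, scaling by total UMIs and other filters, gates, comparison cells and libraries. The fits were tested on simulated counts with 200 genes changed 4-fold, drawn from genes expected at 5 or more counts in the smallest sum. All simulated sums had 1 mean profile and 1 fixed spread, with no library or culture effect. The recovery therefore does not carry over to the spread of the real libraries. Simulated goblet-like against negative cells gave 88.5% of the changed genes back, with 3 false calls over 15226 genes. The gate cells of organoids and tissue gave 82.5% (7 false of 14909), and the difference of contrasts with tissue 55.0% (4 false of 16821). Genes were named from 16 lists (5 listed genes were not found among the 32285 of the files) and by size: the 12 highest and 8 lowest called without overlap against negative cells, the 6 and 6 between gate cells and the 4 and 4 in each difference of contrasts, at a log2 of mean CPM of at least 5. From each list came the 4 highest in level and the 4 largest called changes. Other list members were also named. The cells, lists and genes were chosen with earlier results of these data known.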

Additional observations from a re-analysis of the deposited data

Results flagged for a closer look

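These genes were singled out because the step from comparison cells to gate cells differed between organoids and another source when the difference itself was tested (edgeR, adjusted p below 0.05). They are the 4 highest and 4 lowest of each difference by the rule for named genes. Against tissue, the log2 difference of contrasts was higher in organoids for Lyz1 (7.43), Guca2a (6.85), Pck1 (6.21) and Sycn (4.76), and lower for Best2 (−4.97), Pvt1 (−2.88), Ffar4 (−2.87) and Rnf150 (−2.82). Guca2a was lower in tissue gate cells than in tissue cells under the gate, so the step ran in opposite directions in the 2 sources. Sycn, a secretory granule protein, stood at 7.12 and 24.9 CPM in the goblet-like organoid cells and at 1328 and 1362 CPM in tissue gate cells, so that its higher contrast goes with a lower level. Pck1, an enzyme of glucose synthesis, stood at 3.24 and 6.42 CPM in the organoid cells.

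Against assembloids, it was higher in organoids for Ccl6 (5.99), Itln1 (5.70), Creb3l1 (4.26) and Plcb1 (4.23), and lower for Id1 (−1.89), Tnfaip8l1 (−1.72), Ier3 (−1.43) and Ccnd1 (−1.43). Plcb1, a phospholipase of receptor signalling, stood at 133 and 241 CPM in goblet-like and 10.5 and 24.5 CPM in negative organoid cells, and at 6.97 and 5.71 CPM in assembloid gate cells. Tnfaip8l1 differed by −0.17 between the organoid classes and by 1.55 between those of assembloids.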

How the results depend on the processing

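Goblet-like against negative cells gave 1129 calls as reported, 1726 with DESeq2, 1885 without the filter on low counts, 671 with negative cells of matched UMIs, 2476 against all cells under the gate, 3456 in organoids alone, 274 with no replicate block, and 0 to 3365 with 1 library left out. With at most 5% mitochondrial UMIs it gave 2083, of which 21.5% were higher against 62.4% as reported, and the median of all genes was −0.36. Against tissue 3109 calls became 1951 without the filter, 3020 with a replicate block and 650 to 4013 with 1 library left out. Against assembloids 3626 became 2402, 3541 and 1394 to 3644. The difference of contrasts with tissue (1496) became 646 at 5% mitochondrial UMIs, 121 with cells of matched UMIs, 72 with no replicate block and 49 to 4063 with 1 library left out. That with assembloids (39) became 754 with DESeq2, 835 without the filter, 221 at 5% mitochondrial UMIs, 102 at a gate of 0.3%, 20 without the highest 5% of UMIs, 10 with no replicate block, 125 with scaling by total UMIs alone (added after the data had been seen), 495 against all cells under the gate and 0 to 2114 with 1 library left out. The share of calls that were higher also moved. Against negative cells (62.4%) it was 46.1% in organoids alone, 47.1% against all cells under the gate, 46.4% and 44.4% without assembloid library 1 and 2, 76.6% with matched UMIs, 90.5% with no replicate block and 88.9% without organoid library 2. Against tissue (46.7%) it was 31.3% without tissue library 1. Against assembloids (37.3%) it was 74.2% with total UMIs, and TMM minus total scaling had a median of −0.59 over the genes tested, and of −0.15 for the contrasts with assembloids. For the contrasts with tissue (73.9%) it was 61.8% with DESeq2 and with total UMIs, 57.1% and 89.1% without organoid library 1 and 2, and 23.5% and 61.2% without assembloid library 1 and 2. For those with assembloids (87.2%) it was 50.9% with DESeq2, 45.9% without the filter, 18.1% at 5% mitochondrial UMIs, 56.8% against all cells under the gate, 45.7% and 48.4% without assembloid library 1 and 2, and 100% of 10 with no replicate block. The share of goblet-like cells in library 2 was 1.12% at a gate of 0.3%. The Mki67 shares were 50% and 65.7% when not thinned, and 12.9% in library 2 at 5% mitochondrial UMIs. Chga against negative cells ran from −8.60 without organoid library 1, where library 2 has 0 UMIs of it, to 0.59 without library 2. The causes were not tested.

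For 72 differences (those of the genes named by size in each comparison and of a few fixed genes against negative cells), 1143 values were computed under these settings, of which 1028 kept their direction and their side of the threshold, 99 missed the threshold, 15 newly passed it and 1 reversed. Other named genes, such as Reg4, Klf4 and Best2 against assembloids, are outside this count. Most of the 99 came from leaving out an organoid library, which leaves 1 sum a class there. Leaving out a tissue or assembloid library moved few values. The 1028 therefore say little about a fit with 1 organoid library. Over genes, the differences between the libraries of a source had correlations of −0.04 to −0.06 between sources. That does not show whether same-numbered libraries share an animal or batch. The median mitochondrial share of gate cells was lower in library 1 of each source. Whether the block between gate cells joins samples that share more than a number was not tested. Leaving out a tissue library gave no value for the fits without tissue. Depth limits what 52 and 67 cells can show: a gene at 0 UMIs is only known to lie under 1.07 CPM, the level of 3 UMIs over both libraries.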

Other observations

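Other members of the goblet and deep crypt lists also set the goblet-like cells apart. Kcnma1, a calcium-activated potassium channel, stood at 317 and 610 CPM in goblet-like and at 4.65 and 12.7 CPM in negative organoid cells, a log2 difference of 5.77. Atp2c2, a secretory pathway calcium pump, stood at 46.0 and 33.7 CPM against 1.22 and 1.75 (4.76), and was higher still in the gate cells of assembloids (280 and 242 CPM) and tissue (262 and 230). Cd24a, a surface protein that is high on Paneth cells, stood at 444 and 439 CPM against 131 and 134 (1.68 ± 0.21). All 3 were higher in the goblet-like cells of both organoid libraries.

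Ly6c1, a surface protein known mainly from immune and endothelial cells, stood at 42.7 and 148 CPM in goblet-like and 370 and 326 CPM in negative organoid cells (−2.07), and was higher in the goblet-like cells of organoids than in tissue (6.55). Against assembloid gate cells, the acute phase gene Saa3 was at least 180-fold lower in the organoid cells and Lyz2, the lysozyme of macrophages, at least 59.8-fold. Against tissue, Hao2, Ror1, Slc5a8 and Thbs4 had 0 UMIs in the organoid cells and were at least 114-fold, 105-fold, 96.6-fold and 96.2-fold lower.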
